A study of Mus musculus with 22 samples.

Results

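The 8 genes of adipocyte lipolysis described here were followed through ATAC–seq peak lists of labelled mouse adipocyte nuclei from epididymal fat, before, during and after diet-induced obesity. They are Pnpla2, Abhd5, G0s2, Lipe, Mgll, Pnpla3, Pde3b and Aqp7, 8 of the 21911 protein-coding genes in the annotation, and all 8 were measured in all 22 libraries. For each gene the locus was its span in GRCm38 (mm10) with 20 kb added on each side, and every peak overlapping the locus was used. In ATAC–seq a transposase inserts adapters into accessible DNA, so that coverage is high where chromatin is open. The rule that defines them uses their names and no measured value.

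Lipolysis is the stepwise release of fatty acids from the triglyceride of the lipid droplet. PNPLA2 (ATGL) removes the first fatty acid, ABHD5 (CGI-58) activates it and G0S2 inhibits it. Hormone-sensitive lipase, encoded by Lipe, then cleaves diacylglycerol, and MGLL cleaves monoacylglycerol. Catecholamines drive the pathway through cAMP and protein kinase A, insulin restrains it through the phosphodiesterase PDE3B, and the released glycerol leaves the adipocyte through the channel AQP7. PNPLA3 is a relative of PNPLA2 found on lipid droplets.

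All mice were AdipoERCre x NuTRAP animals on a C57BL/N background that had received tamoxifen before the diets started, controls included, so that Cre driven by an adipocyte promoter had tagged adipocyte nuclei with biotin. Each library came from 1 mouse. In the short-term arm, C (n = 3) was on chow until 18 weeks of age and H (n = 3) had 12 weeks of high-fat diet (HFD) by that age, whereas HC (n = 3) then returned to chow for 8 weeks and was compared at 26 weeks with CC_s (n = 3), fed chow only. In the long-term arm, HH (n = 3) had 25 weeks of HFD at 31 weeks of age with CC_l (n = 2) as control, and HHC (n = 3) had 25 weeks of HFD and 8 weeks of chow at 39 weeks with CCC (n = 2) as control. H and HH are called obese and HC and HHC weight loss. The chow of the last 8 weeks differed from the earlier low-fat chow and was given to CC_s and CCC too, so between controls age and chow cannot be told apart, and the 2 arms are separate series of libraries.

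The lists held 40528 to 60523 peaks per library, covering 128 to 299 Mb. They hold coverage and no read counts, so depth is unknown. HC 3, HH 1 and HHC 3 stood apart with the smallest covered length (128, 132 and 140 Mb, against 162 to 299 Mb in the other 19), and values without them, an alternative chosen after seeing the data, are given beside the main results they move. At the promoters of 12 adipocyte markers, signal was above the lower limit of the scale for all 12 in every library except HC 3 (10) and HHC 3 (11). Endothelial markers were above it for 8 of 8 in HH 1, 6 in HHC 3, 3 in HC 3, 3 in CCC 2 and 1 or 2 in the other libraries. Of 6 progenitor markers, 6 were above it in HH 1, 5 in HC 3, HHC 1 and HHC 3, 4 in HHC 2 and 1 to 3 elsewhere. Of 12 macrophage markers, 8 were above it in HC 3, 7 in HHC 3 and 3 to 6 elsewhere. Mesothelial markers were above it for 5 of 6 in HHC 3 and 0 to 4 elsewhere, and lymphocyte markers for at most 2 of 6. The mesothelial markers moved with obesity: 4, 2 and 1 of 6 were above it in C against 0, 1 and 0 in H, and 2 and 1 in CC_l against 0 in each HH library. Their mean signal was at most 14.31 in every obese library and at least 14.38 in C and 14.45 in CC_l. After long-term weight loss they went the other way, with 2, 2 and 5 of 6 above the limit in HHC against 1 and 1 in CCC. The mean signals were 14.81, 15.41 and 14.99 in HHC against 14.35 and 14.50 in CCC. In HC (14.81 to 15.60) and CC_s (14.51 to 15.24) they overlapped. The part of other nuclei in the differences described here was not tested beyond leaving out the libraries named.

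Of the 8 genes, G0s2 was the one called in locus signal, lower in H against C (as 4.36% of all genes, with 6.61% called higher) and in obesity over both arms (8.26% of genes called in either direction), and Abhd5 the one called in the share of the locus covered by peaks, in H against C (0.816% of genes). Each of these calls was lost when certain single libraries were left out. G0s2, the inhibitor, had a lower locus signal in obese than in control adipocytes in both arms, and the diets overlapped after weight loss. Abhd5, the co-activator, was lower in H, HC and HHC than in the control group of the same age, without overlap between the libraries, as 17.8%, 9.48% and 14.3% of all genes were, and none of these 3 differences in locus signal was called (adjusted p = 0.079, 0.47 and 0.86). At the other 6 loci no diet comparison of ranked locus signal passed an adjusted p of 0.05 with all libraries and the 20 kb flank. With a 50 kb flank Pnpla2 in obesity (-0.30, adjusted p = 0.040) and Lipe in H against C (0.36, adjusted p = 0.044) passed it, and with 1 library left out Lipe and Pnpla3 passed it after weight loss, as given with these genes. In nuclei pooled from 1 depot, less opening in every nucleus and fewer open nuclei cannot be told apart.

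Locus signal is the summed coverage of all peaks that touch the locus, ranked within each library over all genes and given on a log2 scale common to all libraries, so that a difference of 1 is 2-fold. Directions are relative to this ranking: dividing instead by each library's median peak signal moved the median of all genes from -0.0077 to -0.23 in obesity and from -0.0075 to -0.24 after weight loss. Whole peaks are summed, and peaks in these lists are wide: each of the 8 promoters lay in 1 merged region of 53.4 kb (Aqp7) to 141 kb (Mgll) that was present in all 22 libraries. The Abhd5 locus (chr9:122331608-122401524) holds no other coding gene, but A730085K08Rik, not annotated as coding, reaches into it. The Pnpla2 locus (chr7:141435198-141480743) holds 7 others, Lipe (chr7:25359527-25418710) 3, Mgll (chr6:88704412-88848360) and G0s2 (chr1:193252161-193293217) 2 each, and Pnpla3 (chr15:84147837-84207236), Pde3b (chr7:114395281-114559251) and Aqp7 (chr4:41013074-41068139) 1 each. At any of the 8 a difference can belong to a neighbour.

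**Figure D1:**
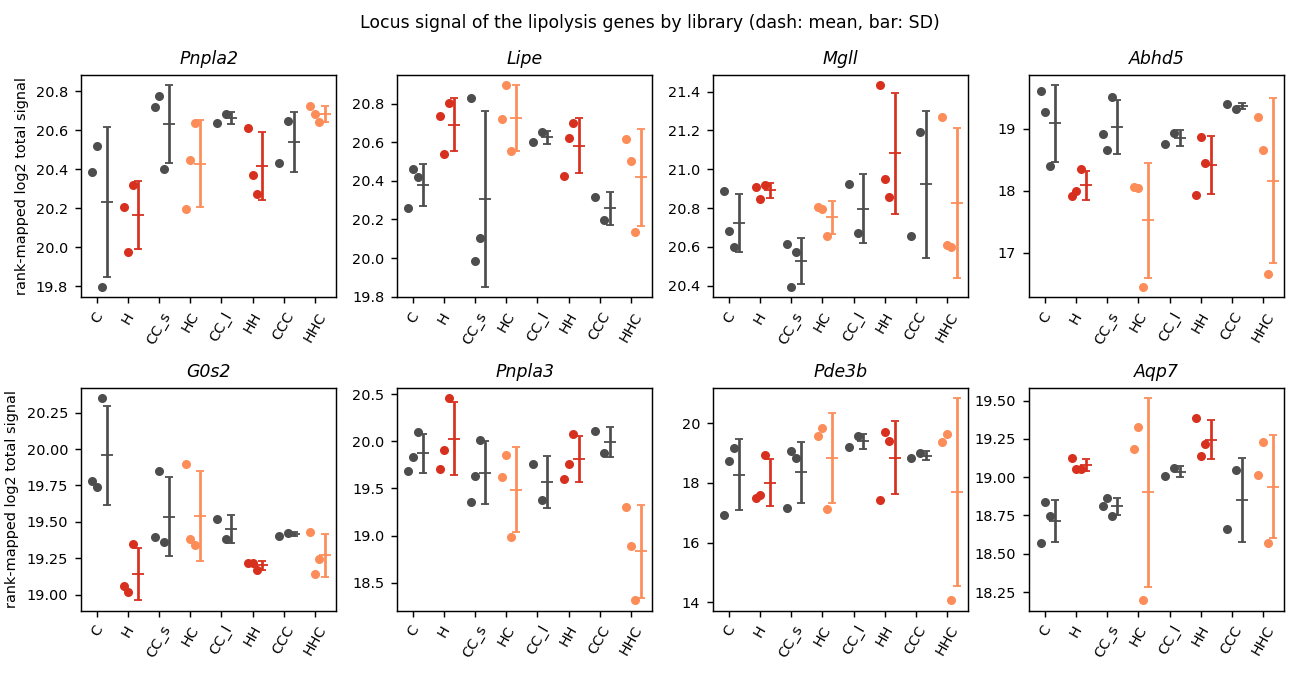
Rank-mapped log2 locus signal (vertical axis) of each gene in the 8 groups (horizontal axis), 1 point per library, with a dash and bar for the group mean and SD; control groups are dark, obese groups red and weight loss groups orange. The H and HH points of G0s2 lie below their controls, and the H, HC and HHC points of Abhd5 lie below theirs.

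Abhd5 encodes the protein that releases PNPLA2 activity at the droplet. Its locus signal was 19.61, 19.27 and 18.40 in C 1 to C 3 and 17.92, 17.99 and 18.35 in H 1 to H 3. All H libraries were below all C libraries, H 3 by little. G0s2 was the other member of 8 below without overlap, against 17.8% of genes. The Abhd5 difference was -1.01 ± 0.31 (log2, SE, n = 3 and 3), with an adjusted p of 0.079 in limma, and without C 3 it was -1.35 and called (adjusted p = 0.024). After weight loss the values were 18.07, 18.05 and 16.45 in HC against 18.92, 18.65 and 19.51 in CC_s, again without overlap, as for 1 of 8 members and 9.48% of genes, and the difference was -1.51 ± 0.48 (adjusted p = 0.47), or -0.97 (adjusted p = 0.32) without HC 3. In the long-term arm they were 17.93, 18.86 and 18.45 in HH against 18.76 and 18.94 in CC_l, which overlap, with a difference of -0.44 ± 0.29 (adjusted p = 0.61), or -0.20 without HH 1. They were 19.19, 18.66 and 16.65 in HHC against 19.40 and 19.33 in CCC, which do not, with a difference of -1.20 ± 0.75 (adjusted p = 0.86), or -0.44 (adjusted p = 0.75) without HHC 3. Abhd5 and Pnpla3 were the members below without overlap there, 2 of 8 against 14.3% of genes.

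Averaged over both arms, the Abhd5 locus differed by -1.35 ± 0.40 between weight loss and control (adjusted p = 0.083, limma) and by -0.72 ± 0.40 between obese and control (adjusted p = 0.31). Neither passed the threshold after adjustment, though the weight loss difference did without HHC 1 (-1.61, adjusted p = 0.033) and with the library median as the scale (-1.66, adjusted p = 0.040), under which the H difference was called too (-1.35, adjusted p = 0.033). Abhd5 was the single member of 8 with every weight loss library below every control of its age in both arms, a pattern found in 3.29% of the 18628 genes tested. Without HC 3, HH 1 and HHC 3 the weight loss difference was -0.70 (adjusted p = 0.12) and the obese difference -0.60 (adjusted p = 0.070). The weight loss effect minus the obesity effect was -0.63 ± 0.57 (adjusted p = 0.70), or -0.10 without the 3 libraries, so the effects were not shown to differ.

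Less of the Abhd5 locus was covered by peaks in H. Peaks covered 76.1%, 78.6% and 71.8% of it in C and 40.5%, 37.5% and 48.3% in H, without overlap, as for 2 of 8 members and 16.1% of genes. The difference of -33.4 ± 5.2 percentage points passed the test (adjusted p = 0.045, limma), the single call among the 8 genes, against 0.816% of the 17273 genes tested. The call was lost when any library other than C 1 was left out (adjusted p up to 0.18), while the difference stayed between -36.5 and -31.1. HC reached 54.7%, 38.3% and 5.17% against 58.5%, 80.0% and 79.9% in CC_s, also without overlap, as for 1 of 8 members and 8.82% of genes (-40.1 ± 15.9, adjusted p = 0.59, and -26.3 without HC 3). HHC at 62.9%, 73.1% and 6.0% overlapped CCC at 74.9% and 63.5%, and without HHC 3 the difference was -1.24. HH at 19.2%, 67.5% and 44.8% overlapped CC_l at 47.1% and 67.0% (-13.2, and -0.92 without HH 1). The mean coverage per covered base differed less than the sum, by -0.42 (adjusted p = 0.28) between H and C and by -0.30 (adjusted p = 0.49) between weight loss and control. Of 139 bins of 500 bp across the locus, 7 had a peak in every C and in no H library, and the longest run of these lay 9.5 to 11 kb after the start. Between HC and CC_s there were 13 such bins, with the longest run at 28.5 to 34.0 kb around the gene's 3′ end. There was 1 between HH and CC_l and there were 2 between HHC and CCC, and no bin was covered in every H, HC, HH or HHC library and in no control of its age.

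**Figure D2:**
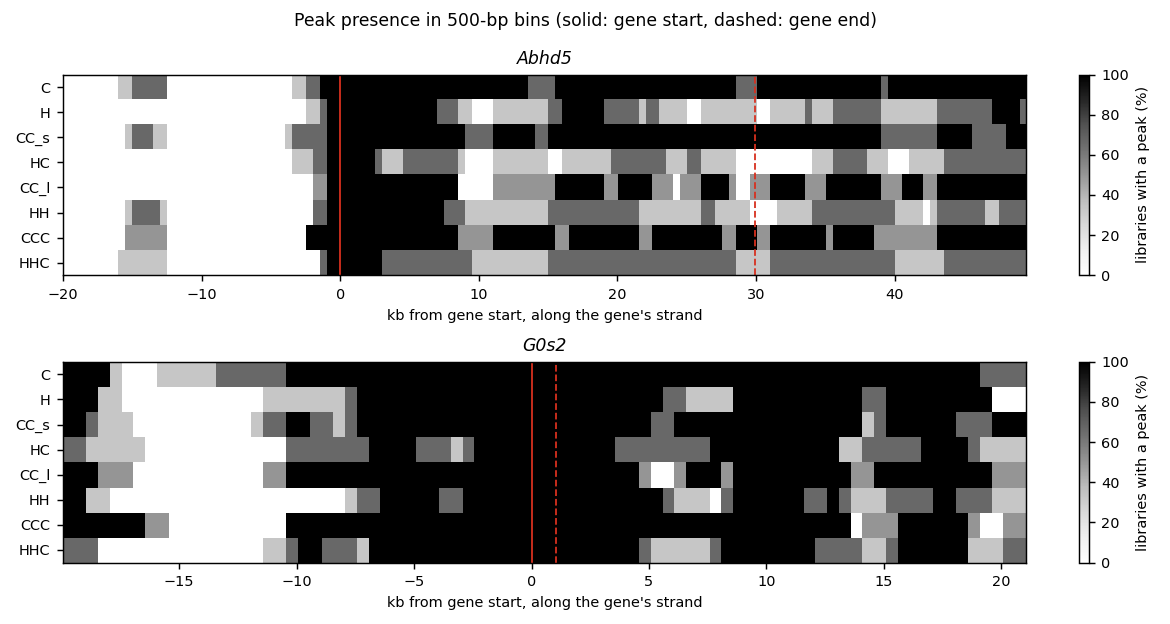
Share of libraries with a peak (grey scale, 0 to 100%) in bins of 500 bp along the Abhd5 and G0s2 loci, by group, against distance from the gene start in kb along the gene's strand; the solid line marks the start and the dashed line the end of the gene. Peaks cover the first kilobases of Abhd5 in all groups, and further into the gene the H, HC, HH and HHC rows are lighter than the C, CC_s and CCC rows, while CC_l has gaps of its own.

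The point of highest coverage within the Abhd5 locus was not the same in control and other libraries. In 9 of 10 control libraries it lay 1.84 to 1.99 kb after the start, in an intron and in no annotated exon. In 1 of the 12 libraries with a history of HFD it lay there (H 3). In 8 of these 12, and in C 3, it lay within 0.17 kb of the start, and in HHC 1 at 5.71 kb. In HH 2 and HH 3 it lay about 44.4 kb after the start, beyond Abhd5 and within A730085K08Rik. Of 14027 loci with a maximum in every library, 0.0998% had 1 position shared to within 250 bp by at least 9 controls and by at most 1 of the others, a rule written after these positions had been seen. The height followed: the highest peak at the locus was 1.69 to 2.96 times the median peak maximum of its library in the 9 controls and 1.3 in C 3, against 0.94 to 1.19 in H, 1.10 to 1.65 in HC, 1.19 to 1.40 in HH and 1.22 to 2.18 in HHC. On the rank-mapped scale the highest maximum differed by -0.80 between weight loss and control (adjusted p = 0.083) and by -0.60 between obese and control (adjusted p = 0.14).

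The intronic window is printed because the highest coverage lay there in most controls, and the promoter because it ends where the start-side maxima begin. The window is the 200 bp centred on the control position (chr9:122353471-122353670, + strand, GRCm38.p6) and the promoter is the RefSeq one (chr9:122351366-122351665, + strand). Of the 9 start-side maxima 1 lies within that promoter (HC 2) and the others lie just after it, in the first exon, in a window that is not printed. Capitals mark matches, on either strand, to a set of short motifs: TTGCNNAA (C/EBP type), AGGTCA (nuclear receptor half-site), the direct repeat of that half-site with 1 base between (DR1), TGANTCA (AP-1 type), TGACGTCA (CRE), CACGTG (E-box), GGGCGG (GC box) and TATAAA.
Abhd5 at 1.96 kb: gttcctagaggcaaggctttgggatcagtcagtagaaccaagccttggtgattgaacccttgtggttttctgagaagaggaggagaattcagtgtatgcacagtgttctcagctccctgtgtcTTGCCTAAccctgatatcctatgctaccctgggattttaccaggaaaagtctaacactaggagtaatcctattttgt
Abhd5 promoter: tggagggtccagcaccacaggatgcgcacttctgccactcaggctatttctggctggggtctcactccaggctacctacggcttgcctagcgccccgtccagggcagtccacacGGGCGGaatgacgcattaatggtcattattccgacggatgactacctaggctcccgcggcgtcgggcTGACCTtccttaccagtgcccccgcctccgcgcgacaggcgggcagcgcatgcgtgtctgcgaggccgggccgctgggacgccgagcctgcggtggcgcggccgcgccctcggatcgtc
The intronic window holds 1 TTGCNNAA match and has 45.5% GC, and the promoter holds 1 GGGCGG and 1 AGGTCA match and has 67.7% GC. The 200 bp around the start-side maxima (chr9:122351631-122351830) hold 4 GGGCGG matches and have 76.0% GC. TTGCNNAA occurs in 17.2% of the 43314 windows of this length at the peak maxima of C 1, and GGGCGG in 35.9% and AGGTCA in 16.0% of 27025 RefSeq promoters. A match shows the letters and not that a factor was bound.

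**Figure D3:**
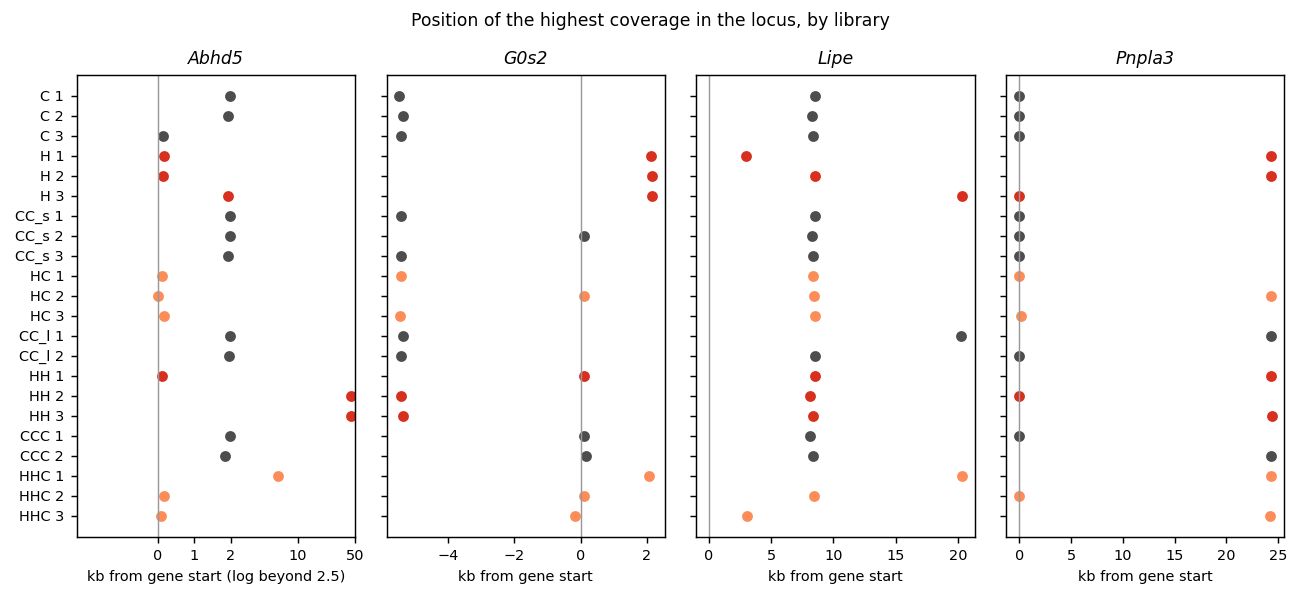
Distance from the gene start in kb (horizontal axis) of the point of highest coverage in the Abhd5, G0s2, Lipe and Pnpla3 loci, 1 point per library (rows, by group), with control groups dark, obese groups red and weight loss groups orange; the Abhd5 axis is logarithmic beyond 2.5 kb. At Abhd5 9 of 10 control points lie near 1.96 kb, and at G0s2 the 3 H points lie at 2.11 to 2.16 kb.

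At the Abhd5 promoter, peaks that touch the 2000 bp on each side of its start sites were summed whole, however far they run. Their signal was 19.56, 18.88 and 17.04 in C and 16.98, 16.84 and 17.43 in H, which overlap through C 3. C 1 and CCC 1 had 1 peak over 53.2 and 52.4 kb of the locus, while C 3 and H 1 to H 3 had 5 or 6 peaks. HC 3 and HHC 3 had 1 peak too, over 3.61 and 4.19 kb. The part of peak splitting in the promoter differences was not tested. HC (16.83, 16.50 and 16.83) lay below CC_s (17.75, 18.01 and 19.07), with a difference of -1.56 ± 0.42 (adjusted p = 0.62), without overlap, as for 1 of 8 members and 6.13% of promoters. HHC (18.05, 17.02 and 16.96) lay below CCC (19.08 and 18.37), as for 2 of 8 members and 11.3% of promoters, and 1.52% of promoters were below in both arms. Over both arms the weight loss difference was -1.47 ± 0.37 (adjusted p = 0.11). It met the study's promoter rule, an unadjusted p under 0.01 and a log2 difference above 1, the single member of 8 to do so, against 1.97% of the 14828 promoters tested, and it was -1.40 and still met it without the 3 libraries named above. The rule was met in HC against CC_s too (1.37% of promoters), but not when any 1 library other than CC_s 1 was left out. Without C 3, the promoter differed by -1.16 in obesity (adjusted p = 0.047) and met the rule in H against C (-2.14). The merged region around Abhd5 (56.1 kb) fell by 0.98 ± 0.27 in H against C (adjusted p = 0.045, which 16.8% of regions passed). This was under a 2-fold cut, taken from the study's rule for enhancers away from start sites, although this region holds a promoter. Leaving out any library other than C 3 ended the call, as did counting signal only where peaks covered most of the region (adjusted p = 0.26).

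G0s2 encodes a small inhibitor of PNPLA2 that is high in adipocytes. Its locus signal was 19.78, 19.74 and 20.35 in C against 19.06, 19.02 and 19.35 in H. It was 19.52 and 19.38 in CC_l against 19.22, 19.22 and 19.17 in HH. Every obese library lay below every control of its age in both arms, 1 of 8 members against 6.69% of the genes tested. The locus fell by 0.53 ± 0.13 in obese against control adipocytes over both arms (adjusted p = 0.022, limma), 1 of 8 members called, lower, against 3.70% of genes called lower and 8.26% called in all. The call was lost without H 1, H 2, CC_l 1 or CC_l 2 (adjusted p = 0.052, 0.058, 0.10 and 0.066), with differences of -0.57 to -0.50. In H against C it fell by 0.82 ± 0.19 (adjusted p = 0.040), 1 of 8 members called lower against 4.36% of genes, while 0 of 8 were called higher against 6.61% (limma, with 4 of 8 members and 31.3% of genes at an unadjusted p under 0.05). That call was at the threshold: leaving out any 1 of the 6 libraries gave adjusted p values of 0.056 to 0.13, with differences of -0.92 to -0.62. Peaks were summed whole, also past the locus. C 3 summed to 2.86e+06 with 36.8 kb of the locus covered, against 1.47e+06 with 38.9 kb in C 2. The H call did not stand in most of the other settings, as given at the end. The mesothelial markers were lower in the same obese libraries (0 or 1 of 6 above the lower limit, against 1 to 4 in C and CC_l), and their part in the G0s2 difference was not tested. In HH against CC_l the difference was -0.25 ± 0.13 (adjusted p = 0.52), and G0s2 and Pnpla2 were the members below without overlap, 2 of 8 against 17.1% of genes.

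After weight loss the G0s2 libraries of both diets overlapped. The locus signal was 19.89, 19.38 and 19.34 in HC against 19.39, 19.85 and 19.36 in CC_s (difference 0.0034 ± 0.22). It was 19.43, 19.14 and 19.24 in HHC against 19.40 and 19.43 in CCC (-0.14 ± 0.17). The weight loss effect minus the obesity effect was 0.46 ± 0.19 (adjusted p = 0.42), so a return was not shown by the test of the difference. CC_s differed from C, both controls, by -0.42 ± 0.22 (adjusted p = 0.81). The merged region of 123 kb around G0s2, which holds its neighbours too, fell by 0.61 ± 0.072 in obesity over both arms (adjusted p = 0.00011, which 9.06% of the 49133 regions tested passed), and the call stood with each of the 22 libraries left out in turn (adjusted p up to 0.00054). In H against C it fell by 0.84 ± 0.11 (adjusted p = 0.0068), a call lost without C 2 (adjusted p = 0.061), against 16.8% of regions called. Both differences were under the 2-fold cut, taken from the study's rule for enhancers although this region holds promoters. With that cut 3.12% of regions were called in obesity and 8.28% in H against C. Where the signal was counted only in libraries whose peaks covered most of the region, both calls ended (-3.10, adjusted p = 0.31, and -2.49, adjusted p = 0.31). Its weight loss minus obesity difference was 0.49 ± 0.10 (adjusted p = 0.070).

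The extent of G0s2 coverage moved with its sum. Peaks covered 79.2%, 94.7% and 89.5% of the locus in C and 65.8%, 64.7% and 77.6% in H, without overlap (-18.4 ± 5.9 points, adjusted p = 0.15). They covered 75.0% and 77.2% in CC_l and 49.5%, 69.7% and 58.7% in HH, again without overlap, as for 2 of 8 members and 14.8% of genes. G0s2 was the single member of 8 below without overlap in both arms, against 4.59% of genes. The signal per covered base was 2.35 to 2.71 times the library's median peak in C and 1.62 to 1.68 times in H, but ranked over all genes the difference was -0.27 (adjusted p = 0.40), and over both arms -0.14 (adjusted p = 0.76). At the G0s2 promoter the obese difference was -0.39 ± 0.19 (adjusted p = 0.35).

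The highest coverage at G0s2 lay at -5.47 to -5.35 kb from the start in all 3 C libraries and 2.11 to 2.16 kb after it, past the gene's 3′ end, in all 3 H libraries. A move of over 1 kb between positions shared by every C and by every H library was seen at 1 of 7 members tested and at 1.41% of 15442 loci. The rule was not planned beforehand. The 5′ position was also the highest in 2 of 3 CC_s, 2 of 2 CC_l, 2 of 3 HC and 2 of 3 HH libraries, and the 3′ position in 1 of 3 HHC libraries. In both CCC libraries and the rest it lay at the start itself. Both windows fall within the annotated span of Lamb3 and in no exon, and they are printed on the strand of G0s2 (chr1:193278524-193278723 and chr1:193270987-193271186, - strand) with the same motifs in capitals.
G0s2 at -5.41 kb: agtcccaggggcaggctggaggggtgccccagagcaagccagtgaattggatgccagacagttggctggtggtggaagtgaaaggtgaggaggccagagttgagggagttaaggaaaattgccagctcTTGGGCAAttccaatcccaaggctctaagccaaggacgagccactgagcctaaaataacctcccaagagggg
G0s2 at 2.13 kb: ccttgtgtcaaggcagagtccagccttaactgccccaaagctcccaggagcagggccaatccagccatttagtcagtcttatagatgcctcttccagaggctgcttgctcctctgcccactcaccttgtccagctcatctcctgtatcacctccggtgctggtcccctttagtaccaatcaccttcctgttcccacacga
The 5′ window holds 1 TTGCNNAA match, and the 3′ window holds none of the motifs searched.

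Pnpla2, which encodes ATGL, stood in chromatin that was open throughout. Peaks covered 94.6 to 100% of its locus in 19 libraries and 78.6%, 79.1% and 77.3% in HC 3, HH 1 and HHC 3. Of 91 bins of 500 bp, 57 had a peak in all 22 libraries, the largest share of the 8 loci (62.6%), which holds the promoters of 7 other genes. The locus signal was 19.80 to 20.52 in C and 19.98 to 20.32 in H, which overlap, as did the diets after weight loss in both arms. HH (20.61, 20.37 and 20.28) lay below CC_l (20.64 and 20.68), with a difference of -0.24 (adjusted p = 0.52). Over both arms it differed by -0.15 ± 0.13 in obesity (adjusted p = 0.53) and by -0.031 ± 0.13 after weight loss (adjusted p = 0.90). The values moved with the setting: in obesity the difference was -0.55 with the library median as the scale (adjusted p = 0.087), -0.50 with no flank (adjusted p = 0.14) and -0.30 with a 50 kb flank, where it was called (adjusted p = 0.040). After weight loss it ran from -0.48 with the library median to 0.11 with edge peaks counted in proportion, and had no stable direction. The merged region of 141 kb, with 10 other promoters, fell by 0.40 ± 0.12 in obesity (adjusted p = 0.041), again under the 2-fold cut, with 9.06% of regions called and 3.12% past that cut. It was a call that stood in 7 of 22 fits with 1 library left out and ended where signal was counted only when peaks covered most of the region (-1.39, adjusted p = 0.67). The highest coverage was 2.97 kb before the start in 13 libraries, and at the Pnpla2 start in 3, none of them controls. In C 3 and HHC 1 the 1 peak over the locus had its maximum outside it, so these have no position.

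Lipe, the gene of hormone-sensitive lipase, had a locus signal of 20.26, 20.46 and 20.42 in C and 20.73, 20.54 and 20.80 in H. All H libraries were above all C libraries, by 0.31 ± 0.10 (adjusted p = 0.097), but the difference was -0.14 with the library median as the scale, where the median of all genes was -0.29, and it was called in 1 of 11 settings, the 50 kb flank (0.36, adjusted p = 0.044). Lipe and Aqp7 were the members above without overlap, 2 of 8 against 20.1% of genes. At the promoters of its start sites the values were 20.05 to 20.18 in C and 20.60 to 20.74 in H, a difference of 0.59 ± 0.12 (adjusted p = 0.061), which missed the threshold that 2.29% of promoters passed. The promoter values were 21.08, 20.53 and 20.74 in HH against 20.51 and 20.26 in CC_l. Lipe was the single member of 8 with every obese promoter above its controls in both arms, against 4.44% of promoters. In locus signal HC (20.72, 20.90 and 20.56) overlapped CC_s (20.83, 19.98 and 20.11) through CC_s 1. In HH against CC_l the locus signal differed by -0.045 ± 0.12, and over both arms by 0.13 ± 0.13 in obesity and 0.29 ± 0.13 after weight loss (adjusted p = 0.63 and 0.22), or -0.26 and -0.16 with the library median as the scale. Without CC_s 1 the weight loss difference was 0.42 and was called (adjusted p = 0.022), and the promoter met the promoter rule in HC against CC_s, higher.

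The highest coverage at Lipe was inside the gene. It lay 8.15 to 8.54 kb after the outermost start in 17 of 22 libraries, 9 of 10 controls and 8 of 12 others, just before the 5′ end of the shorter transcripts at 8.60 kb. The window is printed because the highest coverage recurred there (chr7:25390215-25390414, - strand, no exon).
Lipe at 8.39 kb: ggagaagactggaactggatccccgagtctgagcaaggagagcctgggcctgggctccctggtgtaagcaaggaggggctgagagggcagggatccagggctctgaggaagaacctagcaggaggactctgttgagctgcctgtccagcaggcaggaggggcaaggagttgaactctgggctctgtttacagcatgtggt
None of the motifs searched occurs in it. The highest peak that overlapped the locus reached 2.89 to 7.33 times the library's median peak maximum, against 3.39 to 6.37 times at Mgll, 2.09 to 5.34 at Pnpla2 and 1.83 to 6.36 at G0s2.

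Mgll, the monoacylglycerol lipase gene, spans 104 kb with a locus of 144 kb. Its locus signal was 20.60 to 20.89 in C, 20.85 to 20.92 in H, 20.39 to 20.61 in CC_s and 20.66 to 20.80 in HC. HC lay above CC_s without overlap (0.23 ± 0.12, adjusted p = 0.61), 1 of 8 members against 6.73% of genes. The locus signal was 21.44, 20.95 and 20.86 in HH against 20.92 and 20.67 in CC_l. Over both arms the difference was 0.23 ± 0.14 in obesity (adjusted p = 0.35), smaller without HH 1, or -0.14 with the library median as the scale. After weight loss it was 0.064 ± 0.14 (adjusted p = 0.80), ran from -0.070 without CCC 1 to 0.20 without CCC 2 and had no stable direction. In 21 of 22 libraries the highest coverage was 118 kb after the start, beyond the gene and at the Abtb1 promoter. Promoter signal varied more, from 17.18 in HHC 3 to 20.67 in HHC 1, with no call.

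Pnpla3 had similar locus signals in C (19.68 to 20.10) and H (19.71 to 20.46), but lower ones after long-term weight loss. The values were 19.30, 18.89 and 18.31 in HHC and 20.10 and 19.88 in CCC, without overlap, a difference of -1.16 ± 0.32 (adjusted p = 0.86). In HC (19.62, 19.85 and 18.98) and CC_s (19.36, 19.63 and 20.01) they overlapped, with a difference of -0.18 ± 0.28, or 0.069 without HC 3. Over both arms the weight loss difference was -0.67 ± 0.20 (adjusted p = 0.087), and it was called without CC_s 1 (-0.75, adjusted p = 0.046) or HHC 1 (-0.79, adjusted p = 0.040). The obese difference was 0.20 ± 0.20 (adjusted p = 0.64), or -0.19 with the library median as the scale. The test of one against the other gave -0.87 ± 0.29 (adjusted p = 0.32). Pnpla3 and Abhd5 were the 2 members of 8 at an unadjusted p under 0.01 in weight loss, both lower, against 7.96% of genes in either direction and 4.68% lower. Without the 3 libraries named above the Pnpla3 weight loss difference was -0.41, and -0.90 in HHC against CCC. Per covered base it was -0.51 (adjusted p = 0.27), and at the Pnpla3 promoter the weight loss difference was -1.25 ± 0.48 (adjusted p = 0.25), or -0.71 without HHC 3 and -0.50 (adjusted p = 0.55) without the 3 libraries.

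In 12 libraries, 8 of them controls, the highest coverage at Pnpla3 lay 0.084 kb before its start, and in 9, 2 of them controls, it lay 24.2 to 24.4 kb after the start at the promoter of the neighbour Samm50. The window at the Pnpla3 start carries a full CRE, the cAMP response element, and is printed for that (chr15:84167653-84167852, + strand).
Pnpla3 at -0.08 kb: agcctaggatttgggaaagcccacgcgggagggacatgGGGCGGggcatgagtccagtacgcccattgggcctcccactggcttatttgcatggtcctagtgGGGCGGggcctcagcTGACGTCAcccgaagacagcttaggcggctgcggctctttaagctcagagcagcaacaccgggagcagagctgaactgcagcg
It is the single member of the 7 with a RefSeq promoter to hold TGACGTCA there, which 1.88% of RefSeq promoters and 0.951% of the windows at peak maxima of C 1 hold. It also has 2 GGGCGG matches.

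Pde3b, the target of insulin's brake on lipolysis, had the widest range of locus signal among these genes, from 14.06 in HHC 3 to 19.83 in HC 2. Peaks covered 0.710% of its 164 kb in HHC 3 and 74.0% in CC_s 2, and within C alone 7.93%, 48.2% and 67.2%. None of its 327 bins had a peak in all 22 libraries. The locus signal was 16.93 to 19.16 in C and 17.50 to 18.93 in H, and the diets overlapped in all 4 pairs. The differences of -0.41 ± 0.87 in obesity and -0.37 ± 0.87 after weight loss were smaller than their errors, so that a change at this locus was not detectable with these libraries, of which HHC 3 was at the lower limit of the scale (14.06). Leaving out HC 3, HH 1 and HHC 3 turned the weight loss difference to 0.97 (adjusted p = 0.29) and brought the obese difference to -0.054. Its highest coverage lay within 0.80 kb of the start in 20 of 22 libraries, and the highest maximum was 0.83 to 1.94 times the library's median peak maximum.

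Aqp7 encodes the aquaglyceroporin for glycerol. Its locus signal was 18.57, 18.84 and 18.74 in C and 19.13, 19.05 and 19.06 in H, and 19.01 and 19.06 in CC_l against 19.39, 19.14 and 19.22 in HH. Every obese library lay above every control of its age in both arms, 1 of 8 members against 7.40% of genes (15.2% in HH alone). The differences were 0.36 ± 0.12 in H (adjusted p = 0.093) and 0.21 ± 0.15 in HH (adjusted p = 0.63), and 0.29 ± 0.17 over both arms (adjusted p = 0.34). With the library median as the scale they were -0.04, -0.12 and -0.08, where the median of all genes was -0.29, -0.27 and -0.23. After weight loss the values were 19.18, 19.32 and 18.20 in HC against 18.75 to 18.86 in CC_s, and 19.01, 19.23 and 18.57 in HHC against 18.66 and 19.05 in CCC, which overlap. The weight loss difference over both arms was 0.090 ± 0.17 (adjusted p = 0.77). Without the 3 libraries named above the differences were 0.25 in obesity (adjusted p = 0.063) and 0.36 after weight loss (adjusted p = 0.058). In 20 of 22 libraries the highest coverage lay 0.072 to 0.17 kb after the start, in the first exon.

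**Figure D4:**
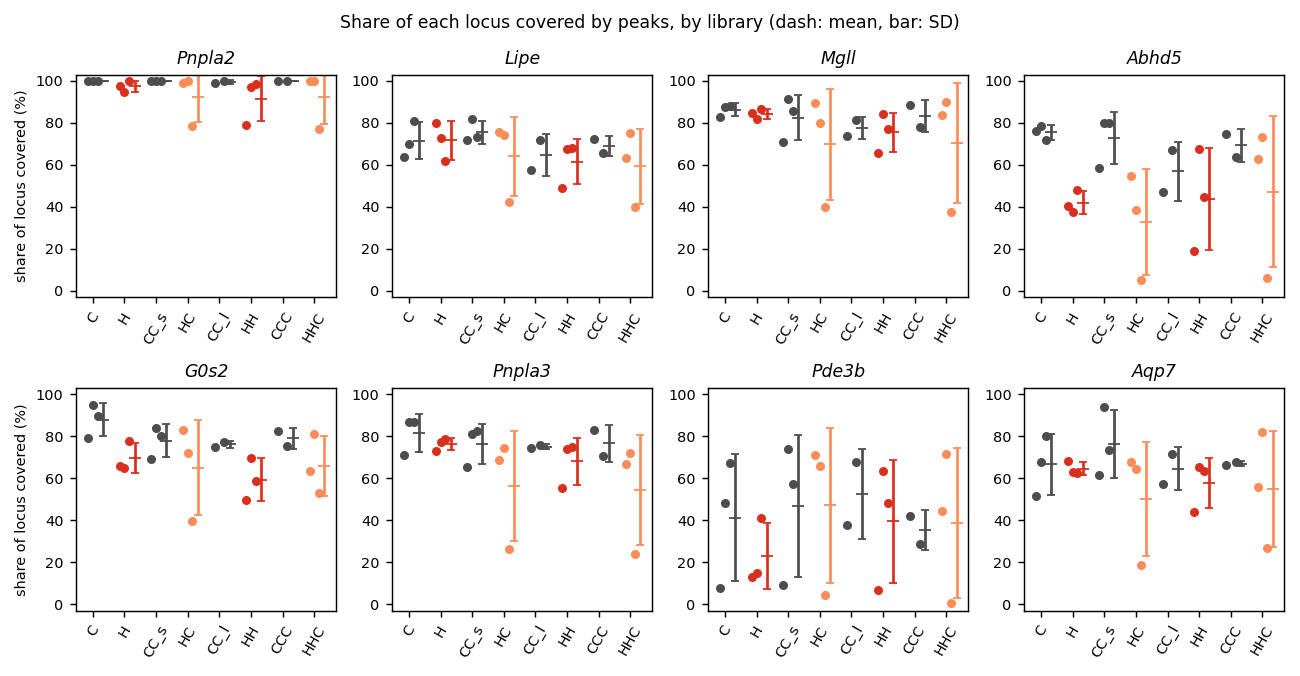
Share of each locus covered by peaks in percent (vertical axis, 0 to 100) in the 8 groups (horizontal axis), 1 point per library, with a dash and bar for the group mean and SD; colours as for locus signal. Abhd5 is covered at 71.8 to 78.6% in C and 37.5 to 48.3% in H, Pnpla2 is nearly filled, and the lowest HC, HH and HHC points of most genes are HC 3, HH 1 and HHC 3.

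Set side by side, the 8 genes did not move together in ranked locus signal. The median difference of the 8 was -0.010 in obesity and -0.051 after weight loss over both arms, beside -0.0077 and -0.0075 for all genes tested, and 0.041 and 0.066 without the 3 libraries. The covered share had a median difference of -5.72 points in obesity and -12.9 points after weight loss, beside -0.72 and -2.58 for all genes. Without the 3 libraries these medians were -2.55 and -1.83 points, beside -0.37 and -0.44 for all genes. All genes include loci with little cover, which can lose few points, and loci of equal cover were not compared. With all libraries each of the 8 had a lower covered share in obesity averaged over both arms, but Lipe and Mgll did not without the 3. By limma with adjustment no member was called in HC against CC_s (0% of genes called), HH against CC_l (0.00579%) or HHC against CCC (0%). At an unadjusted p under 0.05 there were 1, 0 and 1 members of 8, against 8.98%, 12.1% and 4.03% of genes. In weight loss over both arms 0 of 8 members were called against 2.20% of genes, and 3 of 8 against 21.6% were at an unadjusted p under 0.05.

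**Figure D5:**
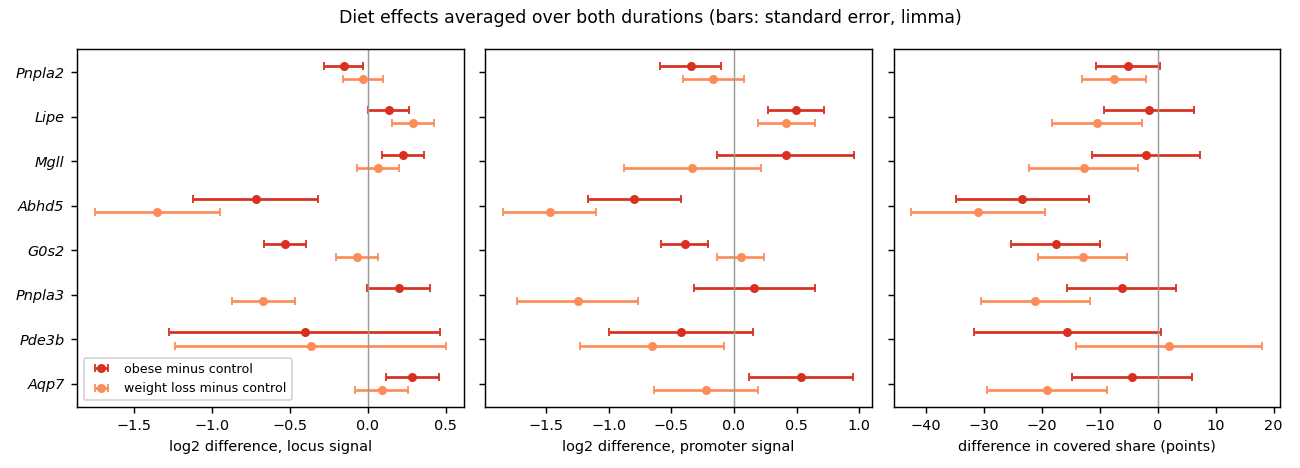
Difference between obese and control (red) and between weight loss and control (orange) averaged over both arms, with bars for the standard error, for locus signal and promoter signal (log2) and for covered share (percentage points), by gene (rows). In locus signal G0s2 is at -0.53 in obesity and -0.07 after weight loss, and Abhd5 at -0.72 and -1.35.

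A list of 37 other genes of the pathway covered receptors, cAMP and insulin signalling, droplet proteins and fatty acid handling. It was chosen with earlier results of these data known, so its shares are a description. In locus signal 6 of the 37 were called in obesity, 2 higher and 4 lower, against 8.26% of all genes. After weight loss 2 were called, 1 in each direction, against 2.20%. Fabp4, the adipocyte fatty acid-binding protein that also binds hormone-sensitive lipase, rose in obesity by 0.80 ± 0.13 (adjusted p = 0.0014) and after weight loss by 0.74 ± 0.13 (adjusted p = 0.0095). Pik3r1, the regulatory subunit of the insulin-activated kinase, fell by 0.90 ± 0.18 (adjusted p = 0.0061) and by 1.05 ± 0.18 (adjusted p = 0.0095). Prkg1, the cGMP-dependent kinase, rose in obesity by 1.89 ± 0.32 (adjusted p = 0.0024). The catalytic subunits of protein kinase A, Prkaca and Prkacb, fell by 0.33 ± 0.098 and 0.94 ± 0.27 (adjusted p = 0.048 and 0.038), as did the insulin receptor substrate Irs1, by 0.57 ± 0.17 (adjusted p = 0.042). At promoters Acsl1, an acyl-CoA synthetase, was the single call over both arms (1.12 ± 0.28 in obesity, adjusted p = 0.047), where 2.09% of promoters were called. In H against C 7 of 36 tested were called in locus signal, 3 higher and 4 lower, against 6.61% of genes called higher and 4.36% lower. They held Gnai1, an inhibitory G protein subunit (0.75 ± 0.11, adjusted p = 0.015), and the receptor genes Adrb1 (-0.81 ± 0.16, adjusted p = 0.027) and Hcar1 (-0.81 ± 0.17, adjusted p = 0.030), beside Fabp4, Prkg1, Irs1 and Pik3r1. At promoters in H against C, 3 of 34 tested were called, 1 higher and 2 lower, against 1.24% of promoters called higher and 1.05% lower. Fabp4 rose by 1.12 ± 0.15, the adrenergic receptor gene Adrb1 fell by 1.59 ± 0.27 and the antilipolytic receptor gene Hcar2 fell by 1.02 ± 0.16 (adjusted p = 0.026, 0.041 and 0.033). The median difference of the 37 was 0.063 in obesity and -0.081 after weight loss. The calls of these genes come from the reported fit alone. Unlike those of the 8 genes, they were not tried in other settings or with libraries left out.

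By rank correlation of locus signal over the 22 libraries, the gene elsewhere in the genome most like Abhd5 was Fbxo45 (Spearman rho = 0.91, among 16804 genes), most like G0s2 Clic3 (0.84), Pnpla2 Scnn1g (0.80), Lipe Ttll3 (0.89), Mgll Dram1 (0.80), Pnpla3 Cpsf6 (0.86), Pde3b Amhr2 (0.91) and Aqp7 Uhrf2 (0.91). These are the highest of many values and the libraries share their enrichment, so they are given as a description.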

How the data were processed

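The values are the deposited SEACR peak lists, 1 per library. Per the labels, the authors trimmed reads (Trim Galore 0.6.6), aligned them to mm10 (Bowtie2 2.4.4), made coverage (SAMtools 1.13, bedtools 2.30) and called peaks (SEACR 1.3, stringent) without pooling; the study removed peaks in blacklisted regions, and whether the deposited lists precede that step is not given in the sources used here. Each peak has a total and a maximum signal, the authors' coverage summed over and highest in the peak, with no normalization stated. The study tested read counts with edgeR, which coverage does not allow, so limma 3.58.1 (R 4.3.3, lmFit, eBayes with trend, Benjamini-Hochberg over all genes) was used on rank-mapped log2 signal: the 16741 highest loci of each library took the mean value at their rank, the rest a lower limit of 14.06 (promoters 14.30). Genes above it in fewer libraries than the smaller group were not tested. Code was tested on simulated data, and Python 3.11.15 did the rest. GENCODE vM21 gave genes, RefSeq (GRCm38.p6) promoters for 7 of the 8. All 8 genes, the regions of their loci and the 37 pathway genes were named. Members and lists were chosen with earlier results of these data known. The number of unmatched columns was 0. Each replicate is a separate mouse. Depth is unknown, so no counting interval is given. Alternatives in signal, scale, window, peak list, filter, model, block and libraries were tried. The replicate numbers did not pair the libraries: deviations of same-numbered libraries from their group means correlated by -0.21 to 0.22.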

Additional observations from a re-analysis of the deposited data

How the results depend on the processing

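For 26 results, each the median difference of the 8 genes at 1 level in 1 comparison, 134 of 148 alternatives stayed within the spread between replicates, and 14 moved. With the library median as the scale, which shifted all genes, the locus medians were -0.42 in H (0.04 in ranks), -0.40 in HC (0.05), -0.47 in HH (-0.14), -0.53 in HHC (-0.12), -0.41 in obesity (-0.01) and -0.49 after weight loss (-0.05). The other moves in locus medians were -0.19 in H with the highest peak maximum, -0.17 in obesity with no flank, and in HH 0.032 per covered base and 0.071 without HC 3, HH 1 and HHC 3. Without these 3 the promoter median of HC was 0.39, and counting a region's signal only in libraries whose peaks covered most of it, the region medians were -1.67 in HC, -1.76 in HHC and -1.63 after weight loss. The cause of these moves was not tested. Leaving out 1 library at a time gave medians of -0.14 to 0.071 for the HH locus, -0.11 to 0.16 for the long minus short effect, -0.23 to 0.14 for H promoters, -0.43 to 0.39 for HC promoters and -10.0 to -2.65 points for covered share in H. Of 3842 alternatives for single genes or regions, 292 changed sign, 0 of them called in limma, 57 lost a call and 18 gained one. With the replicate number as a block, which did not pair the libraries, G0s2 lost its call in H (adjusted p = 0.050), as did the covered share of Abhd5 (adjusted p = 0.13), while G0s2 in obesity kept its call (adjusted p = 0.034) and the Abhd5 promoter no longer met the rule in HC. The G0s2 call in obesity stood in 9 of 11 settings and in 18 of 22 fits with 1 library left out, and its H call in 4 of 11 settings. Leaving out the 3 libraries and the signal per covered base were chosen after seeing the data. Region signal in the 30000 strongest peaks was ranked but not compared, since these peaks define other regions. With 2 or 3 mice a group and depth unknown, small differences were not detectable.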
